A study of Mus musculus with 20 samples.

Results

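Genes for potassium channels were followed in hippocampus and amygdala of mice in which neurons lacked 1 of a pair of nuclear receptor corepressors. The set comprised every gene whose symbol begins with Kcn and whose level reached 1 TPM (a measure of transcript abundance that corrects for length and has the same total in every library) in at least 3 of the 10 libraries of either tissue. Of 23412 gene symbols, 95 begin with Kcn and 78 met this rule. The third-highest value over the libraries was 1.24 TPM for Kcnrg and 1.28 TPM for Kcnh6, the members nearest the limit, and 0.91 TPM for Kcnh8 and 0.77 TPM for Kcnmb1, the closest symbols outside it. In hippocampus 76 members could be tested and in amygdala all 78, since Kcnh6 and Kcnj5 passed in amygdala alone. No member passed through the libraries of a single genotype. Total RNA was taken from mice at postnatal day 21 and sequenced as stranded mRNA libraries. Each tissue gave 3 NCoR1-KO, 3 SMRT-KO and 4 control libraries. The knockouts combined Snap25-IRES2-cre, a driver active in neurons in general, with floxed alleles of the corepressor gene, so glia, vessels and other cells outside its reach kept the gene. The labels do not state whether control mice carried Cre or floxed alleles, nor that libraries of a group came from separate animals, and the p-values accordingly describe variation among the libraries in hand, part of which can be technical. Depth is unknown because TPM keeps none.

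Potassium channels let potassium leave or enter the cell and so set the resting potential, repolarise the action potential and limit repetitive firing. Voltage-gated (Kv) channels are tetramers of pore subunits, joined by silent subunits that do not conduct alone and by cytosolic or membrane-bound auxiliary subunits. Calcium-activated channels couple firing to calcium entry, inward rectifiers and two-pore channels hold the resting potential, and in astrocytes inward rectifiers take up extracellular potassium. The proteins NCoR1 and SMRT are recruited by nuclear receptors and bring histone deacetylases to target genes, which lowers transcription. Neurons of the hippocampus and amygdala carry many of these channels at once.

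Several libraries stood apart before any comparison. In hippocampus, 10 choroid plexus markers summed to 14067 TPM in library NCoR1-KO 3 and to 7210 TPM in library SMRT-KO 2, against 204 to 3921 TPM in controls. Striatal markers summed to 522 TPM in control 2, the highest of the hippocampus libraries, and thalamic markers to 806 TPM in SMRT-KO 2. Prox1, a transcription factor of dentate granule cells, was at 19.6 TPM in hippocampus SMRT-KO 3 and at 46.9 to 84.3 TPM in the other hippocampus libraries. The 10 dentate gyrus markers summed to 311 TPM in SMRT-KO 3, against 462 to 568 TPM in control hippocampus. In the amygdala Prox1 ranged over 4.94 to 9.44 TPM. Of 8 amygdala markers, 4 were called lower in control hippocampus than in control amygdala and none higher, with a median log2 difference of -1.01, and 2 lay above 0. Ncor1 was lower in every NCoR1-KO library than in any control of its tissue, with 49.2 ± 10.4 TPM in NCoR1-KO and 117 ± 24.7 TPM in control hippocampus and with 35.2 ± 3.51 TPM in NCoR1-KO and 108 ± 25.1 TPM in control amygdala (SD, n = 3 and n = 4). Its difference passed limma's test in amygdala (log2 -1.57 ± 0.16 SE, adjusted p = 0.00732) and not in hippocampus (-1.22 ± 0.20, adjusted p = 0.79). Snap25, the gene that carries the Cre driver, lay below all controls of the same tissue in all knockout libraries. Its means in amygdala were 2033 TPM for controls, 1125 TPM for SMRT-KO and 1184 TPM for NCoR1-KO. Hippocampus means were 2254, 1345 and 1292 TPM in that order. Limma called it lower in amygdala (SMRT-KO adjusted p = 0.00507, NCoR1-KO 0.00732) and not in hippocampus. Whether controls carried the driver is not stated, so its presence and corepressor loss cannot be told apart against control. The part of the driver in the channel differences was not tested. All tests below used log2(TPM + 1), a scale that understates the change of low genes, and limma with p-values adjusted over all genes tested in the tissue and 0.05 as the threshold.

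In amygdala of NCoR1-KO mice, 3 of the 78 channel genes fell and none rose. They were Kcnma1, the pore subunit of the BK channel that opens on calcium and depolarisation, Kcnq3, a subunit of the M-current channel that restrains repetitive firing, and Kcng3, a silent subunit that joins Kv2 channels. Of all 14606 genes tested, 0.411% were called, 0.0137% higher and 0.397% lower. Kcnma1 was at 29.1, 33.5 and 37.0 TPM in NCoR1-KO libraries 1 to 3, against 66.9, 72.4, 90.0 and 61.8 TPM in controls 1 to 4. All 3 knockout libraries lay below all controls, and the mean was 45.6% of control. The log2 difference was -1.10 ± 0.11 (SE) with limma's adjusted p = 0.00732. In bulk tissue, fewer cells of a type and less RNA per cell cannot be told apart.

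Kcnq3 was at 20.4, 23.2 and 25.4 TPM in NCoR1-KO amygdala, against 49.0, 40.4, 57.0 and 39.8 TPM in control amygdala. The groups did not overlap, and the log2 difference was -0.98 ± 0.13 (limma, adjusted p = 0.0203). Kcng3 was a low gene, at 0.38, 0.75 and 0.58 TPM in NCoR1-KO and 2.84, 4.0, 4.25 and 2.13 TPM in control libraries. Every knockout library stayed below 1 TPM and every control above 2 TPM, with a log2 difference of -1.43 ± 0.20 (limma, adjusted p = 0.0242). The other silent subunits did not pass. Kcng1 had 46.2, 62.8 and 46.3 TPM in NCoR1-KO and 27.1, 53.8, 34.9 and 36.5 TPM in control libraries (log2 0.46), and Kcnf1 had a log2 difference of 0.24. Without NCoR1-KO 2 none passed, with adjusted p = 0.0541 for Kcnma1 and 0.0619 for Kcnq3 and Kcng3, and without NCoR1-KO 1 or without control 1 only 1 passed.

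Kcnh7, an ERG-type subunit of slowly deactivating channels, lay at 3.43, 2.65 and 3.68 TPM in NCoR1-KO amygdala and at 7.23, 6.58, 13.9 and 4.14 TPM in control amygdala. The groups did not overlap, but the log2 difference of -0.97 ± 0.29 did not pass (limma, adjusted p = 0.183). Kcna6, a delayed rectifier subunit of the Kv1 family, was the single member above all controls in every NCoR1-KO library, at 64.6 to 69.3 TPM in NCoR1-KO and 54.5 to 62.7 TPM in control libraries (log2 0.18, adjusted p = 0.191). In all, 1 member lay above and 8 lay below every control library, where 3.68% and 8.43% of all genes did so. At an unadjusted p under 0.05, 1 member was higher and 9 were lower, with 13.1% of all genes past that limit (3.30% higher and 9.81% lower). The median log2 difference was -0.02 over the 78 members and -0.03 over all genes tested, and 37 members were above 0.

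**Figure D1:**
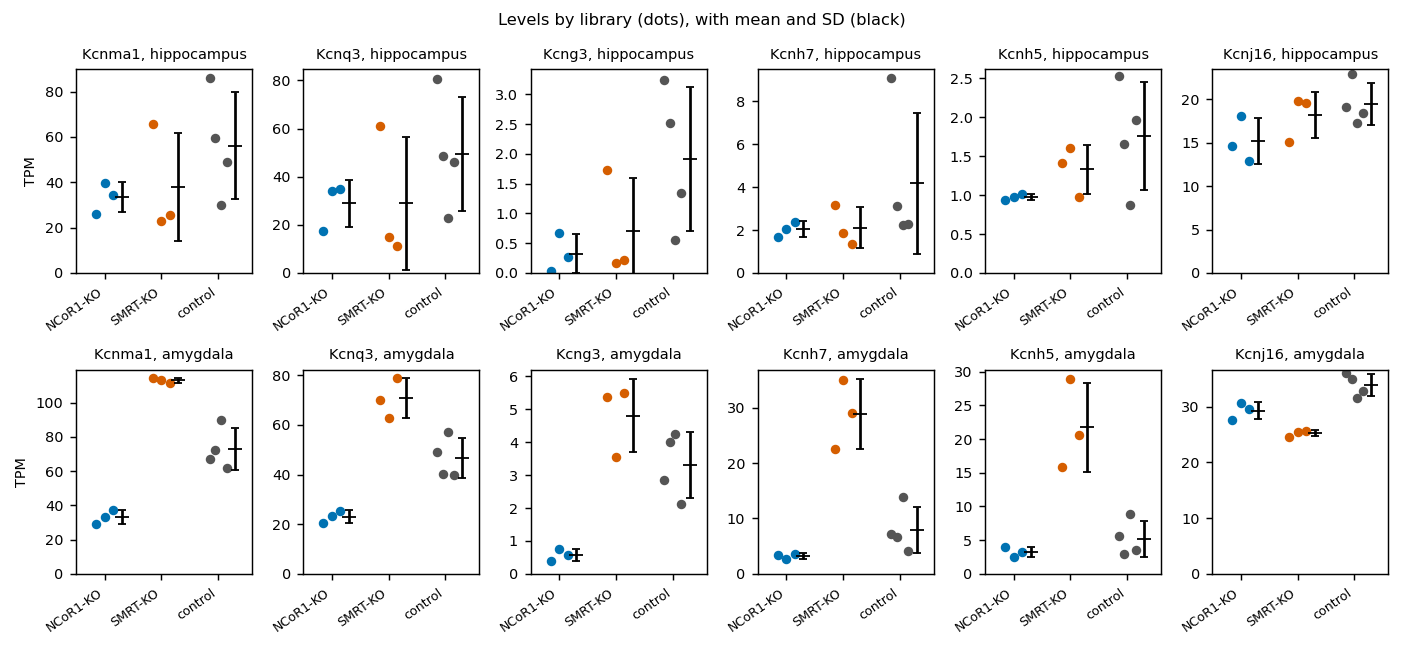
TPM of 6 potassium channel genes in each library (dots) of hippocampus (top) and amygdala (bottom), with NCoR1-KO, SMRT-KO and control from left to right and the mean with its SD in black, drawn down to 0 at most. In amygdala Kcnma1 and Kcnq3 form 3 separate levels, with NCoR1-KO below and SMRT-KO above all controls, while in hippocampus the libraries of 1 genotype spread widely.

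Around the RefSeq starts of the members that passed against control in amygdala, 300-base windows, mostly upstream, were read from the RefSeq table on GRCm38.p6. Both corepressors act through receptors that bind DNA, and sites outside these windows were not searched. A window was held for 56 of the 78 members, among them Kcnma1 (chr14:24004156-24004455, minus strand), Kcng3 (chr17:83631846-83632145, minus strand), Kcnh5 (chr12:75177283-75177582, minus strand) and Kcnj16 (chr11:110967783-110968082, plus strand, the most upstream of its 4 windows). These are 4 of the 5 members that passed, and the other is Kcnq3. The Kcnma1 window lies inside the span that GENCODE M21 gives that gene (23289431 to 24014491). Capitals mark the nuclear receptor half-site AGGTCA or its reverse complement, and the other strand was searched in the same way.
Kcnma1: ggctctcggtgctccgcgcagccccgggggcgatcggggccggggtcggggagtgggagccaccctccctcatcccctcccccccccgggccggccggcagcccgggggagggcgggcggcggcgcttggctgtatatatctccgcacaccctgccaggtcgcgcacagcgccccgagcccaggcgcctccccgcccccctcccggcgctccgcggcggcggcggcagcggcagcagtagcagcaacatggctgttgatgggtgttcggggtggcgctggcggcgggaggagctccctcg
Kcng3: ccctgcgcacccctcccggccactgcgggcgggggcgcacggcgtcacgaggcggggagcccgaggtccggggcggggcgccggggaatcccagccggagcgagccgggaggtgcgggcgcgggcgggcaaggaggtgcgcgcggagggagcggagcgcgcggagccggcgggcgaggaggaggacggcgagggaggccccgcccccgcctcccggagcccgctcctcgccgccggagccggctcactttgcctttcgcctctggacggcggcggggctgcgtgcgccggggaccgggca
Kcnh5: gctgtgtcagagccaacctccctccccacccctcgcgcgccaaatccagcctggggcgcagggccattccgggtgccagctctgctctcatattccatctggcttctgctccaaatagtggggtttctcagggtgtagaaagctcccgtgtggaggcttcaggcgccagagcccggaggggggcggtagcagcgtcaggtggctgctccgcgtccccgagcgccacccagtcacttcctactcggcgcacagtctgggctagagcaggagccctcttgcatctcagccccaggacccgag
Kcnj16: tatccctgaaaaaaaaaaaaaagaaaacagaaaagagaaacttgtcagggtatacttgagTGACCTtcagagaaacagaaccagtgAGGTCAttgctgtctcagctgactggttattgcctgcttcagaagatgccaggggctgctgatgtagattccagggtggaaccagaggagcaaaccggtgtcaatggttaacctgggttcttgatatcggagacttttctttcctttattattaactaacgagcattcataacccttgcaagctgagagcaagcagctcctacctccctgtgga

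The Kcnma1 and Kcng3 windows are rich in G and C, with 78.0% and 82.0% GC and 36 and 49 CpG dinucleotides, where the median over 32851 windows was 52.7% and 7 CpG. The Kcnh5 window had 65.3% GC and 17 CpG. The Kcnj16 window had 44.3% GC and 3 CpG, and it holds the half-site 2 times, once in each orientation. At least 1 half-site was found in 16.26% of all windows and in 5 of the 80 windows of the members (6.2%), which belong to Kcnf1, Kcnh1, Kcnip4, Kcnj16 and Kcnk10. The cyclic AMP response element TGACGTCA was in 1.79% of all windows and in none of the 80. A match is a description of letters and not of binding.

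In amygdala of SMRT-KO mice, Kcnh5 rose and Kcnj16 fell. Kcnh5 encodes an EAG-type voltage-gated subunit, and Kcnj16 encodes an inward rectifier subunit that pairs with Kcnj10 in astrocytes. Of all genes tested, 0.110% were called, 0.0479% higher and 0.0616% lower. Kcnh5 was at 15.9, 28.9 and 20.5 TPM in SMRT-KO libraries 1 to 3, against 5.59, 2.91, 8.82 and 3.48 TPM in controls 1 to 4. Every SMRT-KO library exceeded every control, the mean was 419% of control, and the log2 difference was 1.93 ± 0.30 (limma, adjusted p = 0.0473). Kcnj16 was at 24.6, 25.5 and 25.6 TPM in SMRT-KO and at 36.0, 34.99, 31.6 and 32.8 TPM in control libraries. The groups did not overlap and the spread within SMRT-KO was small, with a log2 difference of -0.41 ± 0.06 (limma, adjusted p = 0.0473). Both calls ended without control 1, 2 or 4, without any 1 of the NCoR1-KO libraries, which share the variance estimate, and without SMRT-KO 2 or SMRT-KO 3. Without SMRT-KO 1 there were 17 calls among the members and without control 3 there were 5.

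Many more channel genes lay above control in SMRT-KO amygdala without passing. At an unadjusted p under 0.05, 31 members were higher and 6 lower, or 47.4% of the 78, where 22.0% of all genes were past that limit (8.42% higher and 13.5% lower). In 18 members every SMRT-KO library exceeded every control and in 3 every one lay below, where 5.85% and 12.2% of all genes did so. The median log2 difference over the members was 0.14, against -0.03 over all genes, and 56 of 78 were above 0. Kcnh7 was at 22.5, 35.03 and 29.0 TPM in SMRT-KO and at 7.23, 6.58, 13.9 and 4.14 TPM in control amygdala, with a log2 difference of 1.82 ± 0.29 that missed the threshold (limma, adjusted p = 0.0562). Kcnma1 was at 115, 113 and 112 TPM in SMRT-KO libraries, above the highest control of 90.0 TPM, with a log2 difference of 0.64 ± 0.11 (adjusted p = 0.0572). Kcna1, a low-threshold Kv1 subunit of axons, was at 66.2, 94.9 and 83.3 TPM in SMRT-KO and at 48.0 to 56.7 TPM in control libraries (log2 0.59, adjusted p = 0.0572). Among members below control, Kcnd3, an A-type subunit, was at 59.7, 39.4 and 50.0 TPM in SMRT-KO and 60.9 to 77.3 TPM in control amygdala (log2 -0.44, adjusted p = 0.121).

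By family, both Kv2 pore genes lay above 0 in SMRT-KO amygdala, as did 6 of 7 EAG, ERG and ELK genes, 10 of 13 inward rectifiers, 9 of 11 Kv auxiliary genes and 6 of 9 two-pore genes. Passing genes were 1 of the EAG, ERG and ELK group and 1 of the inward rectifiers. In NCoR1-KO amygdala the corresponding numbers above 0 were 0 of 2, 3 of 7, 5 of 13, 7 of 11 and 6 of 9. The summed level of all members came to 3012, 3062 and 3192 TPM in NCoR1-KO amygdala and to 3399, 3724 and 3627 TPM in SMRT-KO amygdala, against 2985, 3170, 3119 and 3243 TPM in control amygdala. All SMRT-KO libraries exceeded all controls in this sum, and the NCoR1-KO libraries lay within the control range.

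**Figure D2:**
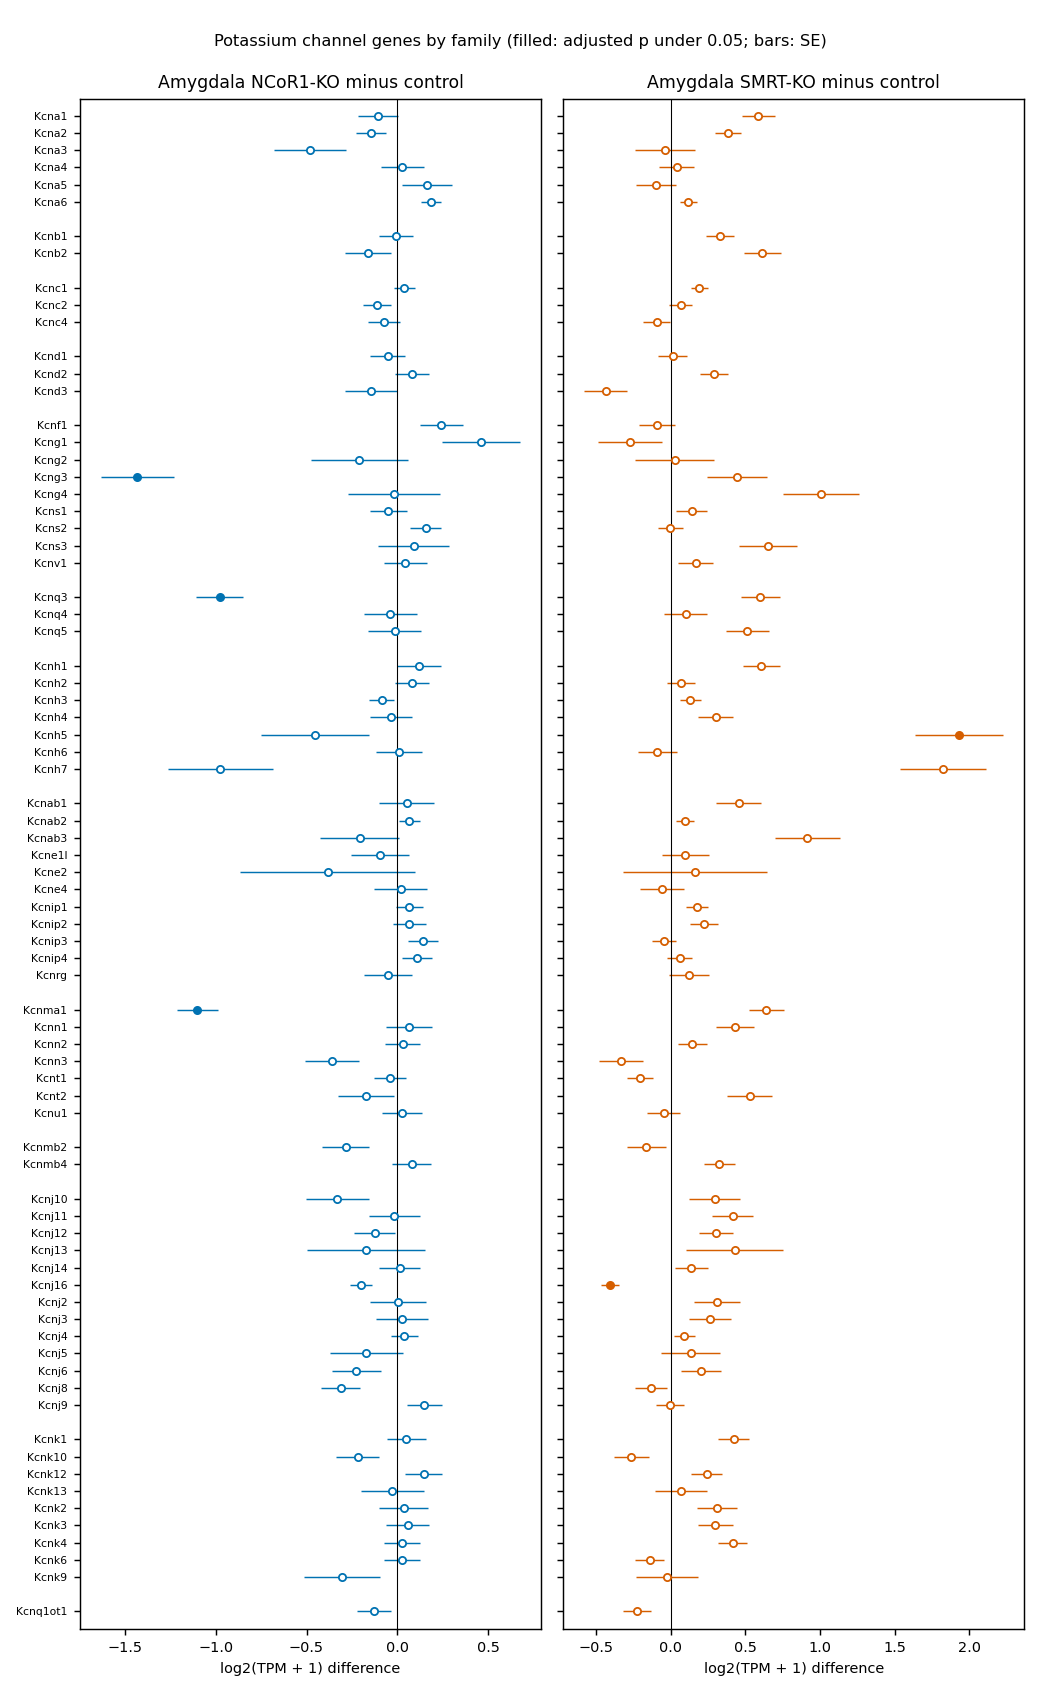
Difference in log2(TPM + 1) from control in amygdala for 76 of the 78 potassium channel genes, grouped by family, in NCoR1-KO (left) and SMRT-KO (right), with SE bars and filled circles for adjusted p under 0.05. Of these, 3 are filled on the left, all below 0, and on the right Kcnh5 above and Kcnj16 below, while 35 of the genes drawn lie above 0 on the left and 55 on the right.

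Cell-type markers also moved in amygdala. The 10 oligodendrocyte markers summed to 3952 to 5419 TPM in NCoR1-KO and 8066 to 12172 TPM in SMRT-KO, against 2693 to 9556 TPM in control libraries. None of these 10 was above 0 in NCoR1-KO against control (median log2 difference -0.23). All 10 were above 0 in SMRT-KO against control (median 0.87), and none passed in either knockout. Pvalb, which marks fast-spiking interneurons, was at 15.7 to 23.5 TPM in NCoR1-KO and 36.1 to 101 TPM in SMRT-KO, against 14.6 to 29.9 TPM in control amygdala. Pvalb belongs to a list of 10 genes that also holds Gad1, Gad2 and Slc32a1, which mark GABA neurons in general. The list summed to 684 to 797 TPM in NCoR1-KO and 801 to 915 TPM in SMRT-KO, against 638 to 973 TPM in controls. Gad1 alone was at 304 to 347 TPM in NCoR1-KO, 316 to 353 TPM in SMRT-KO and 279 to 376 TPM in controls. The sum is therefore not specific to fast-spiking cells. Of the 10 genes, 5 were above 0 in NCoR1-KO against control, with 1 called lower, and 6 in SMRT-KO. The 9 measured of 10 striatal markers summed to 627 to 1084 TPM in NCoR1-KO and 1134 to 1838 TPM in SMRT-KO, against 452 to 1295 TPM in control libraries. Of these 9, 5 were above 0 in NCoR1-KO against control (median 0.01) and all 9 in SMRT-KO (median 0.98). None of them passed in either knockout. Astrocyte markers summed to 3184 to 3273 TPM in NCoR1-KO and 3613 to 4161 TPM in SMRT-KO, against 3657 to 4181 TPM in controls, so that NCoR1-KO lay below every control. Of these 10 markers, 1 was above 0 in NCoR1-KO against control (median log2 difference -0.22) and 1 was called lower there. Between the knockouts 2 astrocyte markers were called lower in NCoR1-KO. The 10 microglia markers summed to 567 to 617 TPM in NCoR1-KO and 741 to 806 TPM in SMRT-KO, against 623 to 785 TPM in control libraries, so that NCoR1-KO again lay below every control. None of these 10 was above 0 in NCoR1-KO against control (median log2 difference -0.29), none passed there, and 7 were called lower in NCoR1-KO than in SMRT-KO (median -0.35). The 10 endothelial markers summed to 273 to 307 TPM in NCoR1-KO and 306 to 372 TPM in SMRT-KO, against 281 to 399 TPM in control libraries. None of the 10 was above 0 in NCoR1-KO against control (median -0.22) and none passed, while 1 was called lower in NCoR1-KO than in SMRT-KO. The part of these differences in the channel results was not tested.

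Between the knockouts in amygdala, 14 members were lower in NCoR1-KO than in SMRT-KO and none was higher. Over all genes 11.5% were called, 5.03% higher and 6.46% lower. The 7 microglia markers called lower between the same groups were given above. In the same comparison none of the 10 oligodendrocyte markers was above 0 (median log2 difference -1.10, 1 called lower). None of the 9 striatal markers tested was above 0 either (median -1.15, 1 called lower). The part of these markers in the channel result was not tested. The 5 of smallest p were Kcnma1, with a log2 difference of -1.74 ± 0.12 (adjusted p = 0.000223), Kcnq3 at -1.58 ± 0.14 (0.00086), Kcnh7 at -2.80 ± 0.31 (0.00152), Kcng3 at -1.87 ± 0.21 (0.0018) and Kcnh5 at -2.39 ± 0.32 (0.00359), all by limma. These 5 passed under all alternatives in which they were tested. Kcnma1, Kcnq3 and Kcnh7 had NCoR1-KO libraries below and SMRT-KO libraries above all controls. The share of all genes with this order was not counted, so it is not shown to be particular to channel genes. Both comparisons with control use the same 4 control libraries.

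The other 9 were Kcna1 (log2 -0.69), Kcna2 (-0.53), Kcnb2 (-0.78), Kcnab3 (-1.12), Kcnt2 (-0.70), Kcng4 (-1.03), Kcnh1 (-0.49), Kcnk4 (-0.39) and Kcnj12 (-0.43). Kcna1 and Kcna2 form axonal Kv1 channels, Kcnb2 is a Kv2 pore subunit, Kcnab3 a cytosolic beta subunit and Kcnt2 a sodium-activated subunit. Kcnab3 was at 15.1, 12.3 and 13.8 TPM in NCoR1-KO libraries, against 20.5, 44.5 and 32.7 TPM in SMRT-KO libraries, and the control libraries held 12.04 to 18.2 TPM. Its SMRT-KO libraries lay above all others, and their spread was wide. Kcng4, a silent subunit, was at 0.91, 1.18 and 1.23 TPM in NCoR1-KO and at 1.69, 5.81 and 3.29 TPM in SMRT-KO amygdala. Library SMRT-KO 2 was the highest SMRT-KO library for all of these 9 genes. It also had the highest Pvalb, at 101 TPM, and the highest oligodendrocyte marker sum, at 12172 TPM. The part of either marker in the channel values was not tested. The number of calls was 9 without NCoR1-KO 1, 8 without NCoR1-KO 2, SMRT-KO 2 or SMRT-KO 3, and 21 without SMRT-KO 1.

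When both knockouts were averaged against control in amygdala, limma called none of the 78 members and 0.00685% of all genes. At an unadjusted p under 0.05, 12 members were higher and 8 lower, with 11.4% of all genes past that limit (3.07% higher and 8.31% lower). Kcnj16 had the smallest p of the members, with a log2 difference of -0.30 ± 0.05 (adjusted p = 0.378), and was at 27.7 to 30.6 TPM in NCoR1-KO and 24.6 to 25.6 TPM in SMRT-KO, against 31.6 to 36.0 TPM in control libraries. All 6 knockout libraries lay below all 4 controls. The other member with that order was Kcnq1ot1, the antisense transcript of the Kcnq1 locus, at 4.20 to 4.53 TPM in NCoR1-KO and 3.77 to 4.56 TPM in SMRT-KO, against 4.62 to 5.46 TPM in control libraries, where 1.41% of all genes lay so. No member had all 6 knockout libraries above all controls, as 0.219% of all genes did. The sources used here do not state whether the counting used strand, so reads of Kcnq1ot1 and of Kcnq1 may not be separated.

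In hippocampus limma called no gene in either knockout against control, so 0% of 14501 genes and none of the 76 members passed. At an unadjusted p under 0.05, 2 members were higher and 6 lower in NCoR1-KO, with 4.54% of all genes past that limit (1.88% higher and 2.65% lower), and 3 were higher and 5 lower in SMRT-KO, with 5.61% of all genes (2.13% higher and 3.48% lower). The median log2 difference of the members was -0.06 in NCoR1-KO and -0.01 in SMRT-KO. In NCoR1-KO, 2 members lay above and 3 below every control, where 4.18% and 3.91% of all genes did so. Kcnab2, a cytosolic beta subunit, was at 564, 553 and 495 TPM in NCoR1-KO and at 487, 422, 450 and 440 TPM in control hippocampus (log2 0.26, adjusted p = 0.998). Kcnt1, a sodium-activated subunit, was at 14.6, 19.1 and 13.2 TPM in NCoR1-KO and 22.7 to 33.0 TPM in control libraries (log2 -0.72). These groups did not overlap, yet none of these differences passed.

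In SMRT-KO hippocampus, Kcng4 was at 7.52, 7.83 and 8.19 TPM, against 5.36, 4.87, 5.36 and 6.77 TPM in control libraries (log2 0.43, adjusted p = 0.779). Kcng4 in SMRT-KO libraries also exceeded all controls in amygdala, with 1.69 to 5.81 TPM in SMRT-KO and 0.86 to 1.33 TPM in control libraries (log2 1.01, limma, adjusted p = 0.0726). The share of all genes with this order in both tissues was not counted. In hippocampus 1 member lay above and 2 lay below every control, where 2.07% and 2.71% of all genes did so. Kcnc4, a Kv3 subunit with fast inactivation, had a log2 difference of -0.46 and Kcnj4, a strong inward rectifier, one of -0.34, and neither passed. Between the knockouts none of the 76 members passed in hippocampus, and 0% of all genes were called by limma. At an unadjusted p under 0.05 none was higher and 6 were lower in NCoR1-KO, where 6.59% of all genes were past that limit (3.82% higher and 2.77% lower). The mean of both knockouts against control gave no call either, with 3 members higher and 6 lower at that limit and 4.77% of all genes past it.

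The genes that separated the groups in amygdala varied within genotypes in hippocampus. Kcnma1 was at 26.2, 39.5 and 34.5 TPM in NCoR1-KO and at 65.5, 22.9 and 25.6 TPM in SMRT-KO, against 86.2, 59.8, 29.9 and 48.9 TPM in control hippocampus. Kcnq3 was at 17.6, 34.0 and 35.05 TPM in NCoR1-KO and at 60.9, 14.8 and 11 TPM in SMRT-KO, against 80.6, 48.5, 22.9 and 46.1 TPM in control hippocampus. For both genes SMRT-KO 1 and control 1 were high and the other 2 SMRT-KO libraries were lower than any control. Kcng3 lay between 0.03 and 0.67 TPM in NCoR1-KO and between 0.16 and 1.73 TPM in SMRT-KO, against 0.55 to 3.25 TPM in control libraries, and Kcnh5 and Kcnh7 were near or below 3 TPM in all libraries but control 1, where Kcnh7 was at 9.08 TPM. Kcnma1 and Kcnq3 were correlated over the 10 libraries of each tissue, with Pearson's r = 0.96 in hippocampus and 0.98 in amygdala, where the libraries share genotype, dissection and composition.

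The difference between tissues in a knockout effect passed for none of the 76 members in either knockout, and limma called 0% of 14210 genes in each of these tests. For SMRT-KO, 21 members had an unadjusted p under 0.05, all with a lower effect in hippocampus than in amygdala, where 8.85% of all genes were past that limit and 4.83% were lower. The median difference in effect was -0.22 over the members and 0.02 over all genes. Kcnh5 had a log2 difference in effect of -2.15 ± 0.39 (adjusted p = 0.167) and Kcnh7 one of -2.42 ± 0.51 (adjusted p = 0.236). When 1 library at a time was left out, 1 member passed without hippocampus SMRT-KO 1 (Kcnb2, adjusted p = 0.0439) and 1 without amygdala control 3 (Kcnh5, adjusted p = 0.0167). For NCoR1-KO, 1 member was higher and 4 lower at an unadjusted p under 0.05, with 3.67% of all genes past that limit and a smallest adjusted p of 0.998. The hippocampus and amygdala values come from separate tables, so tissue and table cannot be told apart.

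The level of long transcripts also varied between libraries. Kcnma1 (chromosome 14, 23289431 to 24014491, minus strand), Kcnq3 (chromosome 15, 65986387 to 66286642, minus strand) and Kcnh7 (chromosome 2, 62693414 to 63184287, minus strand) have transcripts of 12.1, 11.8 and 13.3 kb in GENCODE M21 on GRCm38, which puts them at the 98.9, 98.8 and 99.3 percentiles of the genes tested. Kcng3 (chromosome 17, 83585957 to 83631895, minus strand) has a transcript of 3.36 kb. The 339 genes of amygdala with transcripts of 8 kb or more and a GC content under 45% had a median log2 deviation from the gene's mean of -0.35, -0.18 and -0.17 in NCoR1-KO and of 0.17, 0.14 and 0.15 in SMRT-KO, against 0.01, 0.04, 0.20 and -0.02 in control libraries. NCoR1-KO libraries lay below all controls and SMRT-KO libraries within their range. With each library's trend with transcript length and GC content removed, the log2 difference in NCoR1-KO amygdala was -0.85 for Kcnma1 (adjusted p = 0.00762), -0.73 for Kcnq3 (0.0268) and -1.43 for Kcng3 (0.0308). In hippocampus the same median was -0.22, 0.04 and 0.02 in NCoR1-KO and 0.19, -0.20 and -0.32 in SMRT-KO, against 0.24, 0.15, -0.04 and 0.12 in control libraries.

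**Figure D3:**
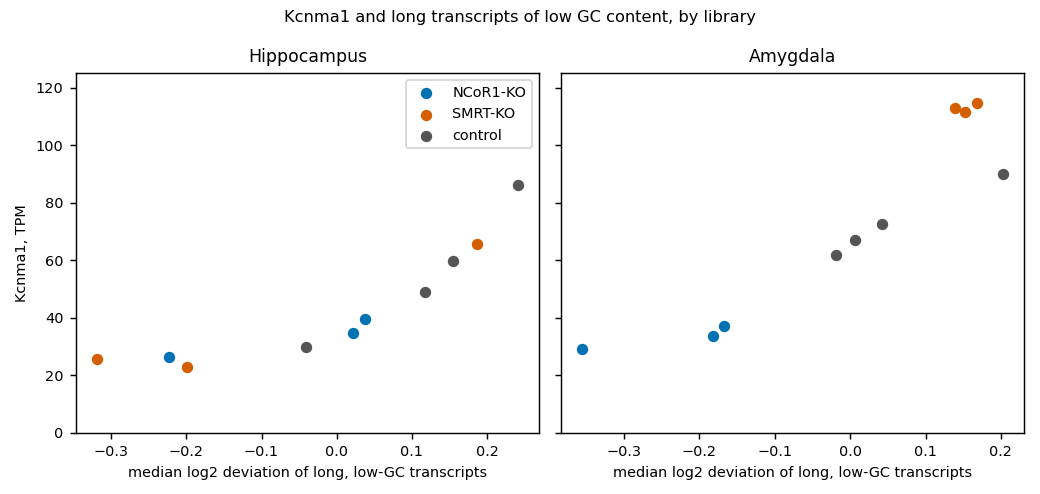
Kcnma1 in TPM (vertical) against the median log2 deviation of long transcripts of low GC content (horizontal) in each library of hippocampus (left) and amygdala (right). In amygdala the NCoR1-KO libraries lie at the lower left, from -0.35 to -0.17. In hippocampus NCoR1-KO 1 (-0.22), SMRT-KO 2 (-0.20) and SMRT-KO 3 (-0.32) lie at the lower left. The lowest hippocampus control on the horizontal axis is control 3, at -0.04 with Kcnma1 at 29.9 TPM.

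The genes most like Kcnma1 over the 10 amygdala libraries were Gm608 (Pearson's r = 0.997), Ptpn4 (0.993) and Brwd3 (0.990). In hippocampus Kcnma1 was most like Fam135b (0.988), Lnpep (0.984) and Dmxl1 (0.983), a set chosen after its values were seen. All of these are descriptions over 10 libraries that share genotype and dissection.

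Across control libraries, the cytosolic beta subunit Kcnab2 was the most abundant member of both tissues, at 450 ± 27.8 TPM in hippocampus and 215 ± 10.3 TPM in amygdala (SD, n = 4 each). TPM is scaled for length, but long transcripts of low GC content shifted between libraries, so levels compare only roughly between genes. Other abundant members in hippocampus were Kcnip2, a calcium-binding partner of Kv4 channels (218 ± 12.1 TPM), and Kcnab1 (151 ± 9.34 TPM). Kcnj10, an inward rectifier of astrocytes (117 TPM), Kcnk1, a two-pore subunit (116 TPM), and Kcnd2, an A-type subunit (115 TPM), were also at 100 TPM or more. So were Kcnmb4, the neuronal BK beta subunit (102 TPM), and Kcna1 (100.3 TPM). Abundant members in amygdala included Kcnj4 (147 ± 12.5 TPM), Kcnip2 (131 ± 11.7 TPM), Kcnip3 (115 TPM) and Kcnf1 (107 TPM). Kcnmb4 (99.4 TPM), Kcnip4 (96.1 TPM), Kcnj9 (90.5 TPM) and Kcnab1 (87.1 TPM) were under 100 TPM there. The control mean was at least 100 TPM for 10 members in hippocampus and for 6 in amygdala. It was at least 10 TPM for 45 members in hippocampus and 47 in amygdala.

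Between the tissues, 42 of 76 members differed in control mice, 17 higher and 25 lower in hippocampus than in amygdala, or 55.3% of the members. Of all 14210 genes tested, 32.5% were called, 13.2% higher and 19.3% lower. In 18 members all hippocampus controls exceeded all amygdala controls and in 27 they all lay below, where 13.6% and 19.1% of all genes did so. Kcnab2 was at 487, 422, 450 and 440 TPM in hippocampus, against 216, 220, 200.2 and 224 TPM in amygdala controls. The groups were far apart, with a log2 difference of 1.06 ± 0.07 (limma, adjusted p = 5.94e-09). Other members called higher in hippocampus included the calcium-activated SK subunit Kcnn2 (log2 0.96), Kcna1 (0.89), the silent subunits Kcng2 (1.99), Kcng4 (1.62) and Kcns3 (1.14), the A-type subunit Kcnd2 (0.68), its partner Kcnip2 (0.73), the beta subunit Kcnab1 (0.81), and the subunits of G protein-gated inward rectifiers Kcnj6 (1.09) and Kcnj3 (0.54). Kcnk1 (0.44), Kcnn1 (0.45) and Kcnq5 (0.76), a further Kv7 subunit, also passed.

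Kcnh4, an ELK-type subunit, was at 1.35, 2.94, 1.05 and 1.15 TPM in hippocampus controls and at 8.01, 7.61, 8.10 and 9.58 TPM in amygdala controls. All amygdala controls were more than 2-fold above all hippocampus controls, with a log2 difference of -1.88 ± 0.16 (limma, adjusted p = 2.33e-07). The silent subunit Kcnf1 ranged over 27.1 to 47.4 TPM in hippocampus controls and over 91.6 to 133 TPM in amygdala controls (log2 -1.60). Other members called lower in hippocampus included Kcnt1 (-1.37), Kcnj4 (-0.90), Kcnc4 (-1.04), Kcnip3 (-0.67), Kcnj16 (-0.77) and the silent subunit Kcnv1 (-1.19). Also among the 25 were the Kv1 subunits Kcna5 (-1.42) and Kcna6 (-0.60), the ELK-type Kcnh3 (-0.83) and Kcnh5 (-1.11). The two-pore subunits Kcnk3 (-0.89) and Kcnk2 (-0.53) and the G protein-gated Kcnj9 (-0.77) were called lower as well. The striatal marker sum was 175 to 522 TPM in hippocampus controls and 452 to 1295 TPM in amygdala controls. All 10 oligodendrocyte markers were called higher in control hippocampus than in control amygdala (median log2 difference 1.34). Of 10 microglia markers, 7 were called lower there (median -0.36). The part of these cell types in the channel differences between tissues was not tested. Within families the direction was mixed. Of 6 EAG, ERG and ELK genes, 3 were lower and none higher, of 9 silent subunits 4 were higher and 3 lower, and of 12 inward rectifiers 2 were higher and 4 lower.

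**Figure D4:**
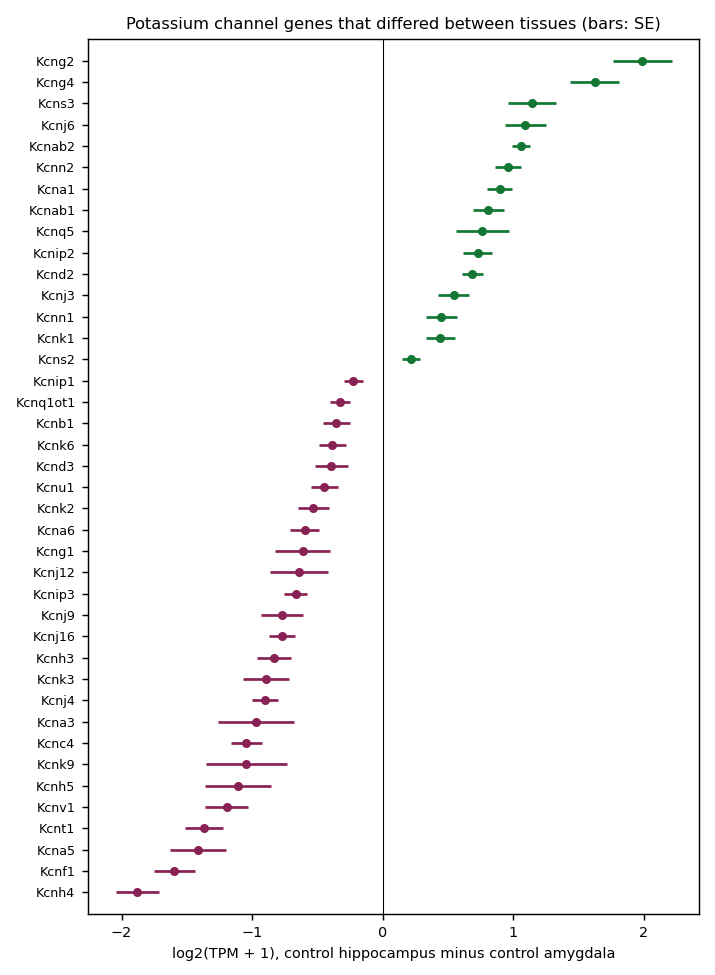
Difference in log2(TPM + 1) between control hippocampus and control amygdala for 40 of the 42 members that passed, with SE bars (n = 4 libraries each). The points run from Kcng2 at 1.99, higher in hippocampus, down to Kcnh4 at -1.88, higher in amygdala, with 15 above and 25 below 0.

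Several members are known for expression in particular cell types. Kcnj13, an inward rectifier of choroid plexus epithelium, was at 9.15, 0.36 and 72.8 TPM in NCoR1-KO and 0.44, 33.6 and 0.41 TPM in SMRT-KO, against 15.2, 16.4, 0.09 and 4.47 TPM in control hippocampus. Kcne2, a beta subunit of the same epithelium, was at 6.39, 0.41 and 49.0 TPM in NCoR1-KO and 0.20, 20.2 and 0.88 TPM in SMRT-KO, against 7.15, 9.57, 0.21 and 1.34 TPM in control hippocampus. The high libraries were the same for both genes and were those with high Ttr, the transthyretin of choroid plexus, which was at 11183 TPM in library NCoR1-KO 3 and at 5583 TPM in library SMRT-KO 2. In amygdala Kcne2 stayed between 0.19 and 4.31 TPM and Kcnj13 between 2.53 and 8.28 TPM.

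**Figure D5:**
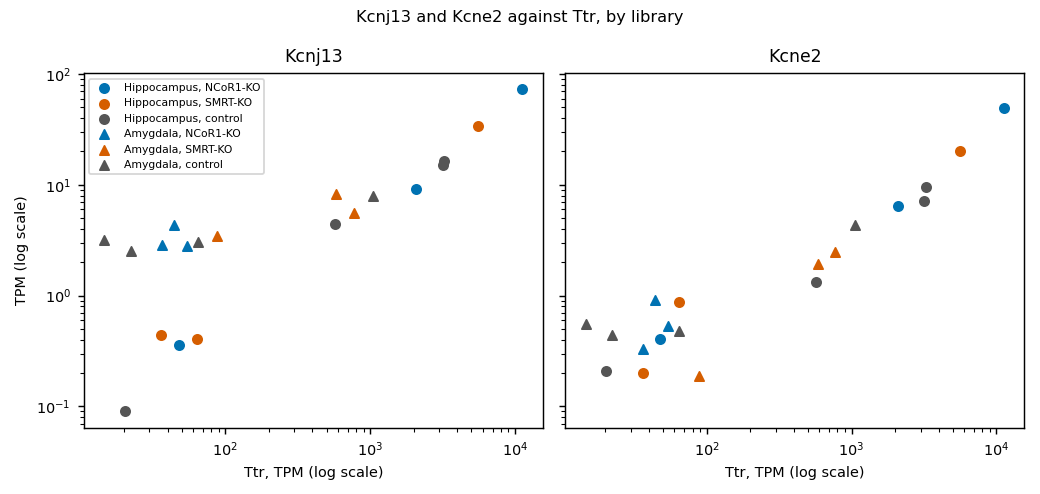
Kcnj13 (left) and Kcne2 (right) against Ttr in each of the 20 libraries, all in TPM on log axes, with circles for hippocampus, triangles for amygdala and colours for genotype. Hippocampus NCoR1-KO 3, with Ttr at 11183 TPM, is the highest point in both panels, and in amygdala libraries with Ttr under 100 TPM Kcnj13 stays between 2.53 and 4.33 TPM.

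Kcnj10, known from astrocytes, was at 112, 97.2 and 108 TPM in NCoR1-KO and 123, 256 and 129 TPM in SMRT-KO hippocampus. Control hippocampus held 94.3 to 154 TPM, and SMRT-KO 2 was the high library. That library also had the highest oligodendrocyte marker sum of hippocampus, at 29014 TPM. Its astrocyte marker sum of 3763 TPM lay within the control range of 3487 to 4192 TPM. The part of either cell type in the Kcnj10 values was not tested. In amygdala Kcnj10 was at 63.6 to 70.7 TPM in NCoR1-KO and 81.9 to 133 TPM in SMRT-KO, against 62.2 to 102 TPM in controls. Kcnj8, a pore subunit of mural cells, was at 2.72 to 3.45 TPM in NCoR1-KO and 3.59 to 3.98 TPM in SMRT-KO, against 3.78 to 4.85 TPM in control amygdala, and its NCoR1-KO difference of -0.31 did not pass (adjusted p = 0.247). Kcnk13, a two-pore subunit of microglia, was at 3.48 to 5.41 TPM in NCoR1-KO and 4.30 to 4.75 TPM in SMRT-KO, against 3.32 to 5.95 TPM in control amygdala. The fast-spiking subunits Kcnc1 and Kcnc2 were at 75.8 to 85.6 and 51.1 to 59.2 TPM in SMRT-KO amygdala, against 66.7 to 73.9 and 49.4 to 58.8 TPM in control amygdala. Kcnc1 thus lay above all controls and Kcnc2 overlapped them, and neither passed.

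Of 20 genes whose proteins are partners or neighbours of potassium channels, 17 were tested in both tissues and none passed in either knockout against control. Between the knockouts in amygdala, Adam22 (log2 -0.43, adjusted p = 0.00731) and Adam23 (-0.46, adjusted p = 0.0143), which bind the Kv1-associated protein Lgi1, and Akap5 (-0.31, adjusted p = 0.0492), an anchor for kinases at channels, were lower in NCoR1-KO than in SMRT-KO, and none was higher. The median over the 17 was -0.05. Between tissues 5 of the 17 were higher and 5 lower in hippocampus. Dpp10, a membrane partner of Kv4 channels, was among the lower (log2 -1.86), and Abcc8, the sulfonylurea receptor that joins Kcnj11, among the higher (0.92).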

How the data were processed

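The authors deposited gene-level TPM values, 1 table per tissue with build mm10. The submitters' processing notes name RSEM 1.3.3, STAR 2.5.3a, fastp 0.21.0 and bcl2fastq, with no role or order. Strand setting and annotation: not given in the sources used here. Groups come from the labels. Values were analysed as log2(TPM + 1) with limma 3.58.1 in R 4.3.3 (variance trend, all 3 genotypes of a tissue in 1 fit, a joint fit of all 20 libraries for tissues, Benjamini-Hochberg adjustment over all genes with at least 1 TPM in 3 of 10 libraries), which was tested on simulated data. The members, families, marker and partner lists were chosen with earlier results of these data known. Named members were those that passed (up to 15 per direction), otherwise up to 4 of smallest p per direction given as not passing, the most abundant, and cell-type markers. The hippocampus likeness set and the hippocampus values of the amygdala members were chosen after values were seen. Alternatives were another pseudocount, filters, scalings, designs and omitted libraries. Transcript lengths are from GENCODE M21 and promoter windows from RefSeq, GRCm38.p6. No libraries held identical values. Some results are not reported here.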

Additional observations from a re-analysis of the deposited data

Results flagged for a closer look

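Of 15 control groups of 4 libraries checked for a far value, 1 had one, and chance flags about 1 in 20 groups. Kcnt2, a sodium-activated subunit, was at 19.97 TPM in amygdala control 4, against 14.2 to 14.9 TPM in the other 3 control libraries. Kcnh4, an ELK-type subunit, differed in direction between tissues in SMRT-KO. In hippocampus all SMRT-KO libraries lay below all controls (0.67 to 0.97 TPM in SMRT-KO and 1.05 to 2.94 TPM in control, log2 -0.47), and in amygdala all lay above (9.71 to 11.5 TPM in SMRT-KO and 7.61 to 9.58 TPM in control, log2 0.30). The difference of the effects was tested in the joint limma fit and was -0.77 ± 0.25 (SE), with limma's adjusted p = 0.41, so it did not pass.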

How the results depend on the processing

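No called result changed direction under the alternatives run. The 42 calls between tissues stayed between 34 and 48 over the alternatives and between 39 and 47 when 1 library was left out, and hippocampus knockout comparisons kept 0 calls throughout. For NCoR1-KO against control in amygdala (3 calls), a fit of only the groups compared gave 1 call, and leaving out control 1 and SMRT-KO 2 together gave 0; 1 library left out gave 0 to 3. For SMRT-KO against control in amygdala (2 calls), a pseudocount of 0.1 gave 1 call, a filter of a mean of 5 TPM gave 6, and removal of the length and GC trend gave 7; genes above 0 TPM in 3 libraries, median ratio scaling, no variance trend, only the groups compared, and the omission of control 1 and SMRT-KO 2 each gave 0; 1 library left out gave 0 to 17. For NCoR1-KO against SMRT-KO in amygdala (14 calls) the omission of control 1 and SMRT-KO 2 gave 7, and 1 library left out gave 8 to 21. The differences between tissues in the SMRT-KO effect had 0 to 1 calls with 1 library left out. The length and GC trend and the joint omission were chosen after seeing the data. Replicate numbers did not pair the samples within a tissue: same-numbered libraries deviated together with r over 0.1 in 2 of 9 pairs within hippocampus and in 2 of 9 within amygdala, and 2 and 4 of 9 libraries correlated best with their own number. Between tissues, r was over 0.1 in 7 of 10 same-numbered pairs (0.000814 to 0.48) and 8 of 10 correlated best with their own number, a hint from the data and not from the design; since not every pair was over 0.1, the joint fit had no block. With the replicate block there were 3 calls for NCoR1-KO against control, 0 for SMRT-KO against control and 9 between the knockouts in amygdala, 47 between tissues and 0 for both differences between tissues in knockout effect. Ncor1 in amygdala NCoR1-KO lay between log2 -1.75 and -1.48 with 1 library left out, and missed the threshold only without NCoR1-KO 2 (-1.56, adjusted p = 0.0541). The causes of these changes were not tested. Depth is unknown, so no counting error can be given for the low members.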
